A study of Mus musculus with 16 samples.

Results

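The genes described here encode proteins that neutrophils store in their cytoplasmic granules. They were chosen by name: 5 secondary granule genes (Ngp, Ltf, Camp, Lcn2 and Retnlg) and 4 primary granule genes (Elane, Mpo, Prtn3 and Ctsg). Each of these 9 genes, of 19272 named genes on the array, had 1 probe set that the platform annotation assigns to it alone. They were measured on 16 microarrays of marrow cells of C57BL/6 mice, cultured with GM-CSF (10 ng/mL) and labelled as dendritic cells. The groups were 450 mOsm/L with LPS at 10 ng/mL, 450 mOsm/L without LPS, 290 mOsm/L with the same LPS, and 290 mOsm/L without LPS, with 4 arrays in each. NaCl was added from day 3 to reach 450 mOsm/L, and cells collected on day 7 were plated for a further 6 h, in which LPS, a bacterial cell wall component sensed by Tlr4, was given. Each of the 4 mice contributed 1 array to each group, and neither age nor sex of these animals is labelled.

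Neutrophils fill their granules in sequence as they mature. Primary (azurophilic) granules are made first, at the promyelocyte stage, and hold myeloperoxidase and serine proteases. Secondary (specific) granules follow at the myelocyte and metamyelocyte stages and hold lactoferrin and other antimicrobial proteins. Granule protein transcripts are made stage by stage, so a mature neutrophil carries little mRNA of the primary granule proteins. Marrow cultures with GM-CSF are known to contain granulocytes and macrophages beside dendritic cells. Lcn2 is also an inducible gene of macrophages and epithelial cells that have met bacterial products.

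Values are log2 expression as deposited, made with RMA, which sets each array relative to the others. A level is a log2 value and a change is a difference of log2 values, given as the limma estimate ± its standard error. Calls were made where the adjusted p (Benjamini-Hochberg) was under 0.05 over the 10236 genes that exceeded 6.83, the median of all values, on at least 4 arrays. Of the 9 genes, 8 passed and Ctsg did not, with 0 arrays above that level. Ltf, Retnlg, Elane and Mpo passed through 290 mOsm arrays only. Counts of genes are therefore given from a fit without this filter, over all 19272 genes. Adjusted p of single genes are from the fit with the filter unless stated. Without the filter the salt changes of Ltf, Retnlg, Elane and Mpo had limma adjusted p at most 9.88e-05 without LPS (Elane). With LPS these were at most 5.98e-05 (Mpo). Array medians lay between 6.78 and 6.93. Genes known to respond to salt and LPS followed the labels: Slc6a12, an osmolyte transporter gene, was 3.38 ± 0.07 higher at 450 than at 290 mOsm, and Il6, an inflammatory cytokine gene, was 7.77 ± 0.09 higher with LPS at 450 mOsm and 7.62 ± 0.09 higher with LPS at 290 mOsm. Of 12 dendritic cell markers, 10 to 12 had means above the filter level in each group, among them H2-Ab1, an MHC class II gene (means of 13.28 to 13.40), and Itgax, an integrin gene that macrophages share (11.41 to 12.13). Of the more specific ones, Zbtb46 had means of 6.80 to 7.48, and Flt3 was below the filter level in every group but 290 mOsm with LPS (7.30).

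Ngp, Ltf and Camp lie on chromosome 9, and Prtn3 and Elane are adjacent on chromosome 10 with 0 protein-coding genes between them in the RefSeq GRCm38.p6 annotation. The 250 bases before the annotated start were searched on both strands for TTNNGCAA, a C/EBP motif, and for GAGGAA, which PU.1 motifs contain. C/EBP factors and PU.1 are known regulators of granule genes. Sequences of 5 promoters are shown to compare secondary genes (Ngp, Ltf, Lcn2) with the adjacent primary pair (Prtn3, Elane). They are RefSeq GRCm38.p6 sequences at chr9:110419558-110419807 (Ngp, + strand), chr9:111019042-111019291 (Ltf, + strand), chr2:32387740-32387989 (Lcn2, - strand), chr10:79879417-79879666 (Prtn3, + strand) and chr10:79886062-79886311 (Elane, + strand). Capitals mark both motifs on either strand.
Ngp: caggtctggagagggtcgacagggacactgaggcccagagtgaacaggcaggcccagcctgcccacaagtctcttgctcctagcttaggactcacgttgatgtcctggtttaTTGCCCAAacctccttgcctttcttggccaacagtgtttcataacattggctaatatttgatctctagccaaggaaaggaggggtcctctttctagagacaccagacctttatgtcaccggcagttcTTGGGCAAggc
Ltf: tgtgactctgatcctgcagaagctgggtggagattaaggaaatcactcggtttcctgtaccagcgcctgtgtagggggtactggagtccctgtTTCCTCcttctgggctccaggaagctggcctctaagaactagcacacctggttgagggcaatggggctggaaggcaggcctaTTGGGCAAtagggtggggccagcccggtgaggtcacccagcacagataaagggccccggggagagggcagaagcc
Lcn2: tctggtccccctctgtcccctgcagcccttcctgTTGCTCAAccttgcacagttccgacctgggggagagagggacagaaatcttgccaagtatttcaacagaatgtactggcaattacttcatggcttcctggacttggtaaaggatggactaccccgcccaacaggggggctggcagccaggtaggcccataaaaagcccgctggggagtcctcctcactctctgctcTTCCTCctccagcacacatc
Prtn3: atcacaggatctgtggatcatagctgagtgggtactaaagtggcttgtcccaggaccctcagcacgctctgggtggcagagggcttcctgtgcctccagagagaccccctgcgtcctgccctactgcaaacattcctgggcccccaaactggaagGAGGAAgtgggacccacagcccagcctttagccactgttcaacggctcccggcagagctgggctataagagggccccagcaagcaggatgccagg
Elane: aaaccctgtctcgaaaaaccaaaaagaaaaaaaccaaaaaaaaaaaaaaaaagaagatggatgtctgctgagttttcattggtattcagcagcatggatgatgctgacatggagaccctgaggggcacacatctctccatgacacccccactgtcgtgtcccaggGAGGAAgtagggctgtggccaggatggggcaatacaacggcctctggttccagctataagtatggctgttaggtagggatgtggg

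TTNNGCAA was found before 4 of the 5 secondary genes (Ngp, Ltf, Lcn2 and Retnlg, not Camp) and 0 of the 4 primary genes, against 9.57% of 32841 promoter windows of this length. GAGGAA was found before all 4 primary genes and before Ltf and Lcn2, against 23.26% of windows. None of the 9 windows held the NF-kB consensus or the osmotic response element consensus of Nfat5, which 7.25% and 4.31% of windows held. TGTGGT, the RUNX core, was found before Ctsg and in 14.05% of windows. These matches describe letters in a window and show no binding.

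The first comparison asked what high salt did to these genes in cells without LPS. All 9 genes were lower at 450 than at 290 mOsm in the fit without the filter, where 12.4% of all genes were called lower and 15.8% higher. With the filter, 44.3% of genes were called in either direction. The secondary granule genes had a median change of -4.49 (range -6.03 to -2.44) and the primary granule genes of -0.68 (range -1.08 to -0.45), beside a median of 0.063 over all 19272 genes. Each gene was lower at 450 mOsm in 4 of 4 mice. In bulk RNA, fewer neutrophils and less granule RNA per cell cannot be told apart.

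Ngp encodes neutrophilic granule protein, a cathelicidin relative. Its level was 6.00, 6.22, 6.51 and 6.32 at 450 mOsm in mice 1 to 4, against 12.05, 12.29, 12.28 and 12.54 at 290 mOsm. The groups lay far apart, with every 450 mOsm array under the filter level, and the change was -6.03 ± 0.18 (limma adjusted p = 5.14e-14). Ltf encodes lactoferrin, which binds iron. It was at 5.89, 6.26, 6.31 and 6.22 at 450 mOsm, against 10.81, 10.94, 11.21 and 11.45 at 290 mOsm. Again no array of one group came near the other, with a change of -4.94 ± 0.13 (limma adjusted p = 1.11e-14). Camp encodes cathelicidin, the precursor of the antimicrobial peptide CRAMP. It was at 6.33, 6.38, 6.49 and 6.64 at 450 mOsm, against 8.70, 8.99, 8.85 and 9.06 at 290 mOsm. Its change was -2.44 ± 0.11 (limma adjusted p = 1.03e-11), with every 450 mOsm array under the filter level.

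Lcn2 encodes lipocalin 2, which captures bacterial siderophores. Its level was 8.09, 8.18, 8.22 and 7.34 at 450 mOsm, against 12.08, 12.18, 12.23 and 12.58 at 290 mOsm. The groups did not overlap, and mouse 4 gave both the lowest 450 mOsm value and the highest 290 mOsm value. The change was -4.31 ± 0.15 (limma adjusted p = 3.03e-13), and -4.11 without the 450 mOsm array of mouse 4. Lcn2 was the one secondary gene whose 450 mOsm arrays all stayed above the filter level. Retnlg encodes resistin-like gamma, a secreted protein of the resistin family found in neutrophils. It was at 5.49, 5.89, 5.21 and 5.69 at 450 mOsm, against 9.99, 9.26, 10.28 and 10.71 at 290 mOsm. It varied most between mice at 290 mOsm (SD 0.61) and changed by -4.49 ± 0.25 (limma adjusted p = 2.62e-10).

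The primary granule genes were dim in every group, with Ctsg under the filter level throughout. Mpo, the myeloperoxidase gene, was at 6.25, 6.15, 6.17 and 6.28 at 450 mOsm, against 6.84, 7.45, 7.20 and 7.66 at 290 mOsm. The groups did not overlap, and the change was -1.08 ± 0.16 (limma adjusted p = 3.80e-05). Prtn3, the proteinase 3 gene, was at 6.46, 6.31, 6.18 and 6.95 at 450 mOsm, against 7.23, 7.37, 7.08 and 7.70 at 290 mOsm, a change of -0.87 ± 0.17 (limma adjusted p = 0.000529). Mouse 4 had the highest Prtn3 value in both groups. Elane, the neutrophil elastase gene, was at 6.56, 6.66, 6.45 and 6.74 at 450 mOsm, against 6.95, 7.04, 7.09 and 7.24 at 290 mOsm, a change of -0.48 ± 0.07 (limma adjusted p = 5.35e-05). Ctsg, the cathepsin G gene, ranged from 5.35 to 5.61 at 450 mOsm, against 5.71 to 6.22 at 290 mOsm. Its change was -0.45 ± 0.11 in the limma fit without the filter (adjusted p = 0.00516). RMA compresses low signals, so the changes of dim genes can be understated, also those of Ngp, Ltf, Camp and Retnlg, whose 450 mOsm arrays lay under the filter level, and the gap between primary and secondary changes is not a ratio of RNA amounts.

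**Figure D1:**
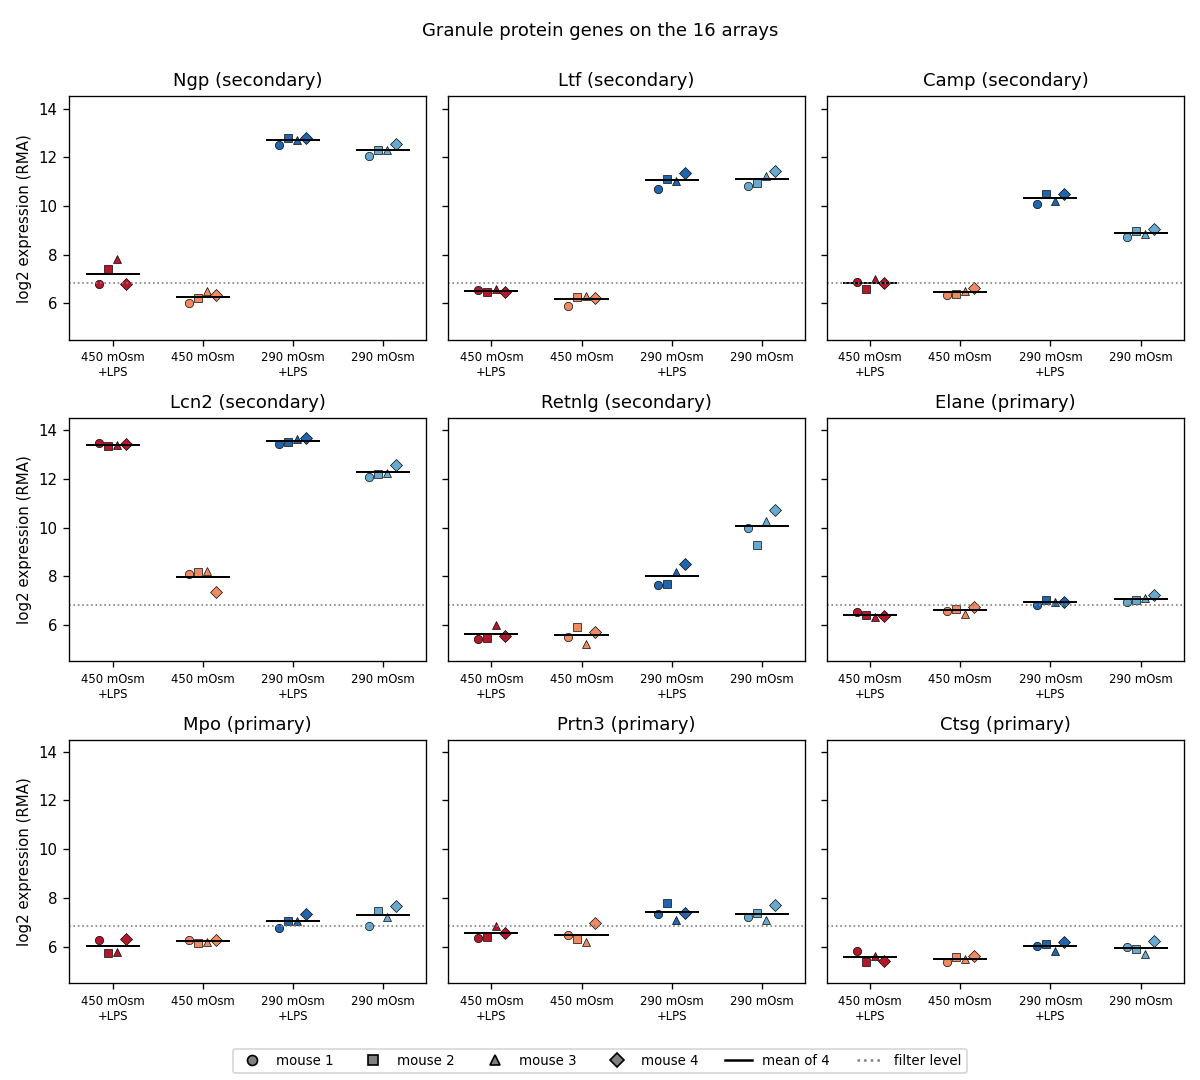
Log2 expression of the 9 granule protein genes on each of the 16 arrays, by group, with mice as symbols, bars for the mean of 4 and a dotted line at the filter level of 6.83. Secondary genes are far lower at 450 mOsm, except Lcn2 with LPS, while the primary genes lie between 5.35 and 7.80 everywhere.

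The second comparison set the same osmolarities against each other in the presence of LPS. In the fit without the filter 8 of the 9 genes were lower at 450 mOsm with LPS, where 10.8% of all genes were called lower and 9.87% higher, and Lcn2 was not called. With the filter 38.6% of genes were called. The secondary genes had a median change of -3.49 (range -5.49 to -0.16) and the primary genes a median of -0.69 (range -1.04 to -0.48), beside 0.045 over all genes. Both salt comparisons used cells of the same 4 mice.

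Lcn2 was at 13.48, 13.35, 13.39 and 13.42 at 450 mOsm with LPS, against 13.43, 13.52, 13.65 and 13.66 at 290 mOsm with LPS. The groups overlapped, with a change of -0.16 ± 0.15 (95% confidence interval -0.46 to 0.15, limma adjusted p = 0.419) and lower values in 3 of 4 mice. The highest value on any array was 14.32, and differences this near the top of the scale can be compressed. Ngp stayed low, at 6.78, 7.40, 7.84 and 6.81 at 450 mOsm with LPS, against 12.48, 12.78, 12.71 and 12.80 at 290 mOsm with LPS. Its change was -5.49 ± 0.18 (limma adjusted p = 3.23e-13), and mouse 3 had the highest and mouse 1 the lowest value of the 450 mOsm group. Ltf was at 6.55, 6.48, 6.59 and 6.48 at 450 mOsm with LPS, against 10.71, 11.13, 11.04 and 11.36 at 290 mOsm with LPS, a change of -4.54 ± 0.13 (limma adjusted p = 9.61e-14).

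Camp was at 6.87, 6.61, 6.99 and 6.84 at 450 mOsm with LPS, against 10.06, 10.50, 10.22 and 10.50 at 290 mOsm with LPS. The change of -3.49 ± 0.11 (limma adjusted p = 1.15e-13) was larger than the one without LPS, with dim 450 mOsm values in both comparisons. Retnlg was at 5.43, 5.46, 5.98 and 5.56 at 450 mOsm with LPS, against 7.63, 7.67, 8.19 and 8.51 at 290 mOsm with LPS, a change of -2.39 ± 0.25 (limma adjusted p = 6.09e-07). Its 450 mOsm values with LPS overlapped those without LPS. The primary genes changed by amounts close to those without LPS: Mpo by -1.04 ± 0.16, Prtn3 by -0.86 ± 0.17 and Elane by -0.53 ± 0.07 (limma adjusted p at most 0.000593). Mpo was at 6.25, 5.72, 5.76 and 6.31 at 450 mOsm with LPS, against 6.77, 7.03, 7.04 and 7.34 at 290 mOsm with LPS. Prtn3 ranged from 6.37 to 6.84 at 450 mOsm with LPS, against 7.09 to 7.80 at 290 mOsm with LPS, and Elane from 6.31 to 6.54, against 6.80 to 7.01. Mpo, Prtn3 and Elane each lay lower on every 450 mOsm array, while the highest Ctsg array at 450 mOsm and the lowest at 290 mOsm both stood at 5.81. Ctsg had means of 5.55 ± 0.20 and 6.03 ± 0.16 (SD, n = 4 each) at 450 and 290 mOsm with LPS (-0.48 ± 0.11, adjusted p = 0.00353 in the limma fit without the filter).

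**Figure D2:**
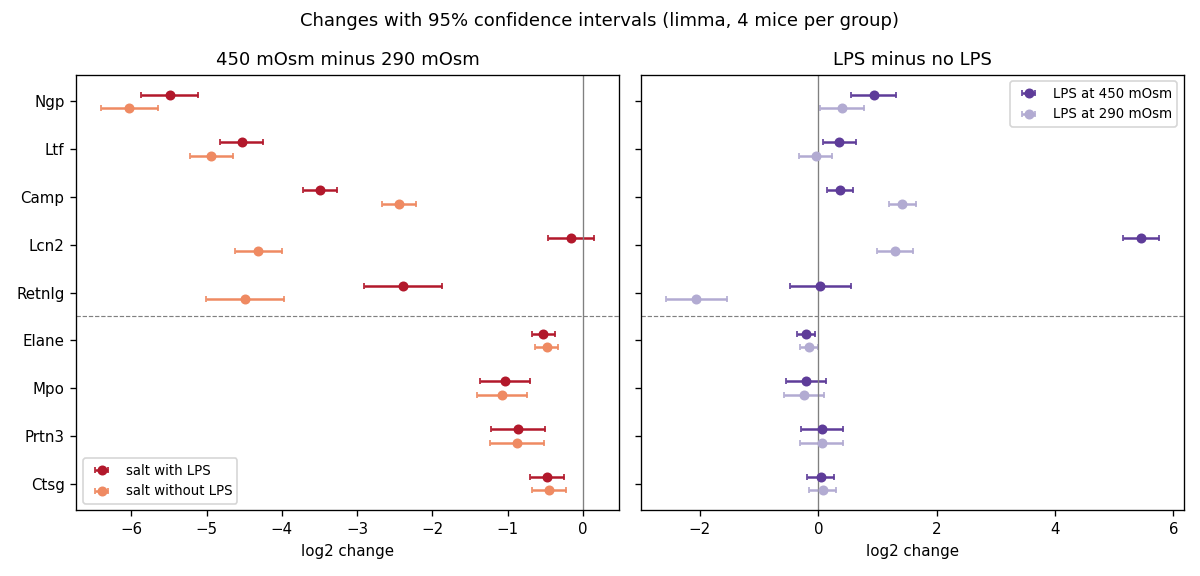
Log2 changes with 95% confidence intervals for salt (left) and LPS (right), with secondary genes above the dashed line and primary genes below it (Ctsg from the fit without the filter). The salt change of Lcn2 with LPS spans 0, and its LPS change at 450 mOsm, 5.45, is the largest rise among the 9 genes.

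LPS moved the secondary genes in different directions. At 290 mOsm 73.5% of the genes tested were called, and without the filter 18.4% of all genes were higher and 27% lower. Of the 9 genes, 2 were called higher and 1 lower without the filter. Camp rose by 1.42 ± 0.11 (2.68-fold, limma adjusted p = 9.42e-10) and Lcn2 by 1.30 ± 0.15 (2.46-fold, limma adjusted p = 2.32e-07), with no overlap between the groups and a rise in 4 of 4 mice. Retnlg fell by 2.06 on the log2 scale (SE 0.25, limma adjusted p = 5.40e-07), between 7.63 and 8.51 with LPS and between 9.26 and 10.71 without it. Ngp was higher with LPS in 4 of 4 mice by 0.40 ± 0.18 and missed the threshold (limma adjusted p = 0.0534); with the mouse as a block it passed (limma adjusted p = 0.0197). Ltf showed -0.04 ± 0.13 (95% confidence interval -0.32 to 0.24, limma adjusted p = 0.777). None of the primary genes was called: Mpo was at -0.24 ± 0.16, Elane at -0.15 ± 0.07, Prtn3 at 0.06 ± 0.17 and Ctsg at 0.07 ± 0.11 (limma adjusted p from 0.0681 to 0.779, Ctsg from the fit without the filter). Their 95% intervals allow changes between -0.58 and 0.41. Of 13 neutrophil markers outside granules, 10 were higher and 1 lower with LPS at 290 mOsm, and their part in the granule gene changes was not tested. Without the 290 mOsm array of mouse 1, Mpo (-0.39, limma adjusted p = 0.026) and Elane (-0.20, limma adjusted p = 0.0302) were called lower.

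At 450 mOsm 71.8% of the genes tested were called, and without the filter 16.3% of all genes were higher and 25.7% lower. Of the 9 genes, 4 were called higher and 1 lower. Lcn2 rose by 5.45 ± 0.15, 43.8-fold (limma adjusted p = 7.65e-16), with means of 13.41 ± 0.055 with LPS and 7.96 ± 0.41 without it (SD, n = 4 each). Ngp rose by 0.94 ± 0.18 (limma adjusted p = 0.000132) and Camp by 0.36 ± 0.11 (limma adjusted p = 0.00504), both between dim values. Ltf was called higher by 0.36 ± 0.13 (limma adjusted p = 0.0231), but not without mouse 1 (0.25, limma adjusted p = 0.0512), without mouse 3 (0.38, limma adjusted p = 0.0619), or without the 450 mOsm array of mouse 1 (0.26, limma adjusted p = 0.0917) or the 450 mOsm with LPS array of mouse 3 (0.34, limma adjusted p = 0.0529). Retnlg showed 0.04 ± 0.25 (95% confidence interval -0.48 to 0.56, limma adjusted p = 0.906). Elane was called lower by -0.20 ± 0.07 (limma adjusted p = 0.0201), a call lost with cyclic loess (-0.15, limma adjusted p = 0.0528), with median centring (-0.15, limma adjusted p = 0.0564), and without mouse 2 or 4 or the 450 mOsm arrays of mouse 2 or 4 or the 450 mOsm with LPS array of mouse 3 (limma adjusted p from 0.0554 to 0.12). The calls of Ltf and Elane also lay between dim values, with every 450 mOsm array of both genes under the filter level. In the fit without the filter their limma adjusted p were 0.034 and 0.0371. Mpo (-0.20 ± 0.16) and Prtn3 (0.06 ± 0.17) were not called.

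The order of the 4 group means therefore differed between genes. For Ngp and Camp it ran 290 mOsm with LPS, 290 mOsm, 450 mOsm with LPS, 450 mOsm, where the top pair of Ngp missed the threshold. For Ltf both 290 mOsm groups did not differ beyond their spread (11.06 ± 0.27 with LPS, 11.10 ± 0.29 without, SD, n = 4 each) above both 450 mOsm groups. For Lcn2 it ran 290 mOsm with LPS, 450 mOsm with LPS, 290 mOsm, 450 mOsm, where the top pair was not called as different. For Retnlg, 290 mOsm without LPS was highest, 290 mOsm with LPS next, and both 450 mOsm groups lay together at the bottom.

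The difference of the salt changes was tested as an interaction, called for 21.1% of the genes tested, and without the filter for 4.8% of all genes upward and 4.86% downward. For Lcn2 the salt change was 4.16 ± 0.21 higher with LPS than without it (limma adjusted p = 4.85e-10) and for Retnlg 2.09 ± 0.35 higher (limma adjusted p = 0.000268). Both LPS groups of Lcn2 lay near the top of the scale (means of 13.41 at 450 and 13.56 at 290 mOsm). Differences there can be compressed, so the size of its interaction is uncertain. All 450 mOsm arrays of Retnlg were below the filter level, with and without LPS, so its interaction mirrors its fall with LPS at 290 mOsm and carries no separate information on salt. For Camp the salt change was 1.06 lower with LPS (-1.06 ± 0.15, limma adjusted p = 6.02e-05). LPS raised Camp by 1.42 at 290 mOsm and by 0.36 at 450 mOsm. Its 450 mOsm means were dim, at 6.83 with LPS and 6.46 without it. Its interaction thus mainly reflects its rise with LPS at 290 mOsm, and low signal limits what it says on salt. The 3 interactions called held in 4 of 4 mice. Ngp (0.54 ± 0.25, limma adjusted p = 0.153) and Ltf (0.40 ± 0.19, limma adjusted p = 0.151) were not called. The primary genes ranged from -0.05 to 0.04 and none was called (limma adjusted p from 0.8 to 0.987 for the 3 tested, and 0.956 for Ctsg without the filter). Their 95% intervals reach from -0.50 to 0.51 for the 3 tested.

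**Figure D3:**
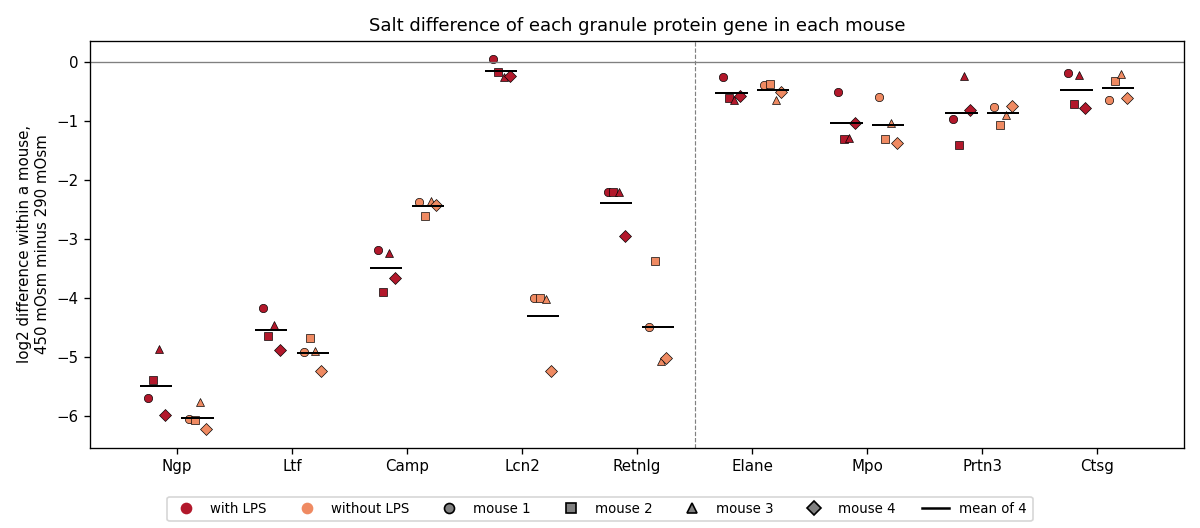
Log2 difference between 450 and 290 mOsm within each mouse, with LPS (dark) and without it (light), with bars for the mean of 4 mice. Lcn2 lies between -0.26 and 0.05 with LPS and between -5.24 and -3.99 without it, and the primary genes at right show no such split.

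Other genes of the granule program came from lists of related genes. Without LPS, 10 of 13 other granule genes were lower at 450 mOsm and 1 was higher, in the fit without the filter (12.4% and 15.8% of all genes). Pglyrp1, a peptidoglycan recognition protein gene, changed by -2.54 ± 0.14, Mmp9, the gelatinase gene, by -2.80 ± 0.17, Chil3, a chitinase-like gene, by -2.12 ± 0.16 and Cd177, a neutrophil surface gene, by -1.11 ± 0.09. With LPS 8 of 13 were lower and 2 higher (10.8% and 9.87% of all genes), with Pglyrp1 at -3.18 ± 0.14 and Olfm4, which encodes olfactomedin 4, at -2.72 ± 0.17. Members that behaved differently were singled out after their values were seen. Hp, the haptoglobin gene, rose by 1.28 ± 0.16 without LPS and 0.89 ± 0.16 with it, and Lyz2, a lysozyme gene of all myeloid cells, showed -0.02 ± 0.04 and -0.05 ± 0.04. The interaction was called for 3 of the 13 without the filter, 1 upward and 2 downward (4.8% and 4.86% of all genes). Ptx3, the pentraxin 3 gene, showed -0.65 ± 0.13 for salt without LPS and 0.53 ± 0.13 with LPS, an interaction of 1.18 ± 0.18 (limma adjusted p = 0.000125). As for Camp, the salt changes of Pglyrp1 and Olfm4 were lower with LPS than without it, with interactions of -0.64 ± 0.20 (limma adjusted p = 0.0306) and -0.76 ± 0.24 (limma adjusted p = 0.0282). Both were dim at 450 mOsm, with means of 6.77 with LPS and 6.87 without it for Pglyrp1, and 6.23 and 5.96 for Olfm4. Their interactions thus mainly reflect their rises with LPS at 290 mOsm (0.54 and 1.03).

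Genes that activate, store and inhibit granule proteases changed in both directions. Ctsc, whose protease product activates the primary granule serine proteases, rose by 0.38 ± 0.07 with salt alone and by 1.56 ± 0.07 with LPS at 290 mOsm. With salt in the presence of LPS Ctsc was not called (-0.11 ± 0.07, limma adjusted p = 0.219), and its interaction was called downward. Slpi, an elastase inhibitor gene, rose by 0.93 ± 0.08 with salt alone and by 1.76 ± 0.08 with salt in the presence of LPS. Srgn, the granule proteoglycan gene serglycin, was not called for salt (0.09 ± 0.04 without LPS and 0.02 ± 0.04 with it). Serpinb6a, whose human relative inhibits cathepsin G, changed by -0.50 ± 0.09 and -0.48 ± 0.09. Of 4 such genes on the array, 2 were higher and 1 lower for salt without LPS, beside 15.8% and 12.4% of all genes.

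Of 9 transcription factor genes of granulocyte development, 3 were higher and 2 lower with salt alone, and 0 higher and 5 lower with salt in the presence of LPS, in the fit without the filter. Over all genes 15.8% were higher and 12.4% lower with salt alone, and 9.87% and 10.8% in the presence of LPS. Myb, a gene of progenitor cells, changed by -0.29 ± 0.06 with salt alone and -0.58 ± 0.06 in the presence of LPS. Cebpb showed 0.26 ± 0.07 with salt alone. Cebpa changed by -0.30 ± 0.07 with salt alone and -1.91 ± 0.07 with LPS at 290 mOsm. Cebpd showed 0.28 ± 0.08 with salt alone and -0.50 ± 0.08 with salt in the presence of LPS. Cebpe and Gfi1, which are needed for secondary granules and for neutrophil differentiation, were singled out after their values were seen: Cebpe showed -0.11 ± 0.07 (limma adjusted p = 0.251) and Gfi1 0.05 ± 0.09 (limma adjusted p = 0.664) with salt alone. Without LPS, Gfi1 (means of 6.37 at 450 and 6.32 at 290 mOsm), Cebpd (6.53 and 6.25) and Myb (6.47 and 6.76) lay under the filter level. Low signal therefore limits what their changes with salt alone show, and that of Gfi1 does not show that it was unaffected. Of the receptors of granule proteins, 3 of 6 were on the array. Lrp1, a lactoferrin receptor gene, changed by 0.32 ± 0.08 with salt in the presence of LPS, and Slc22a17, a lipocalin 2 receptor gene, by 0.24 ± 0.07 with salt alone.

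Most markers of neutrophils and of macrophages were lower with salt, as the granule genes were. The other lists varied with the cell type and with LPS. Counts of these lists are from the fit without the filter. The shares of all genes in that fit were 15.8% higher and 12.4% lower for salt without LPS, and 9.87% higher and 10.8% lower with LPS. Of 13 neutrophil markers outside granules, 9 were lower and 0 higher at 450 mOsm, both without LPS and with it, among them S100a8 (-4.54 ± 0.15 without LPS), S100a9 (-5.12 ± 0.18) and Ly6g (-3.23 ± 0.17). Their mean level ranged from 7.45 to 7.55 at 450 mOsm with LPS, 6.64 to 6.93 at 450 mOsm, 9.05 to 9.43 at 290 mOsm with LPS and 8.22 to 8.71 at 290 mOsm. Ly6g, the defining surface marker, had means under the filter level in both 450 mOsm groups, at 5.60 with LPS and 4.87 without. Granulocyte-monocyte precursor markers had 4 of 6 lower and 0 higher without LPS, and 2 lower and 1 higher with LPS. Mast cell and basophil markers had 3 of 6 lower and 1 higher without LPS and 4 lower with LPS. Eosinophil markers had 2 of 4 lower and 1 higher without LPS, and 3 lower and 1 higher with LPS. Some of these counts rest on dim genes that did not pass the filter. They were Fcer1a, Ms4a2, Cma1 and Tpsb2 (mast cell and basophil), Ms4a3 and Sox4 (precursor) and Epx (eosinophil). All 6 mast cell and basophil markers had means under the filter level in both 450 mOsm groups. Monocyte markers had 1 of 3 lower without LPS, and 2 lower and 1 higher with LPS, and macrophage markers had 4 of 5 lower in both. Among 12 markers of dendritic cells, 1 was higher and 2 were lower without LPS, and 4 were higher and 3 lower with LPS. Without LPS their mean level ranged from 9.51 to 9.63 at 450 mOsm, against 9.42 to 9.56 at 290 mOsm. The part of these cell types in the granule gene changes was not tested.

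**Figure D4:**
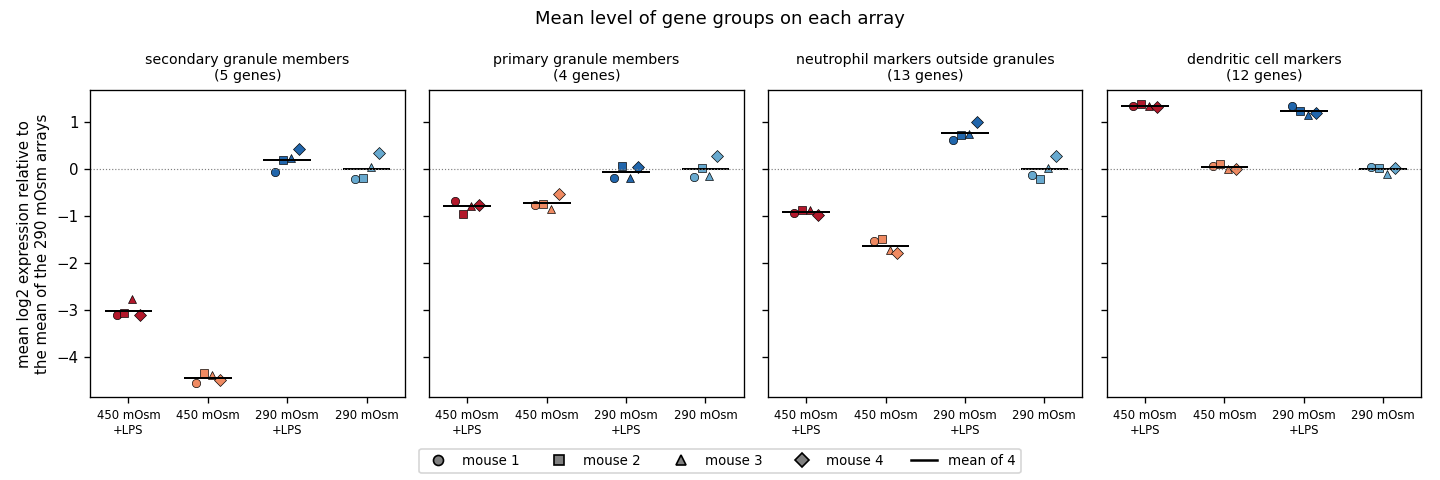
Mean log2 level of 5 secondary genes, 4 primary genes, 13 neutrophil markers and 12 dendritic cell markers on each array, relative to the mean of the 290 mOsm arrays. The secondary genes average -3.01 at 450 mOsm with LPS, -4.44 at 450 mOsm and 0.20 at 290 mOsm with LPS, the primary genes -0.79, -0.72 and -0.068, and the dendritic cell markers 1.35, 0.045 and 1.23.

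At 290 mOsm mouse 4 had the highest value of all 9 granule genes, and with LPS at 290 mOsm of 6 of them. The neutrophil markers outside granules were also highest in mouse 4 in both groups, at 0.29 and, with LPS, 1.01 above the 290 mOsm mean. So were the mast cell and basophil markers, at 0.37 and, with LPS, 0.78, and the other granule genes, at 0.22 and 0.88. Monocyte markers (0.066 and 0.36), granulocyte-monocyte precursor markers (0.069 and 0.14) and granulocyte transcription factors (0.073 and 0.14) were also highest in mouse 4. The remaining lists were not highest in mouse 4 in both groups. The dendritic cell markers were highest in mouse 1 in both, at 290 mOsm by little (0.045, against 0.031 in mouse 4). At 450 mOsm mouse 4 was highest for 5 of the 9 genes, and with LPS for 1.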

How the data were processed

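RNA of 16 cultures was hybridised to Affymetrix Mouse Gene 1.0 ST arrays, 1 colour and 1 array per sample. The deposited values are log2 expression made by the authors with RMA in the oligo package, per the submitters' processing notes, with no version stated there. Scanner files and scan dates were not used here. Of 22549 probe sets, 20646 had 1 gene symbol in the platform annotation, 551 several and 1352 none, and 19272 genes remained with the brightest probe set kept. The means of 4 groups were fitted with limma 3.58.1 in R 4.3.3 over genes above 6.83 on at least 4 arrays (12 residual degrees of freedom), with 5 contrasts and Benjamini-Hochberg adjustment over all genes tested. The procedure was tested on simulated data. The number of arrays limits the precision.

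The mouse identifier in the labels pairs the groups. Over 24 pairs of arrays of 1 mouse the deviations from group means correlated at -0.15 to 0.43 (median 0.095), against a median of -0.035 for different mice. The mouse as a block was an alternative, beside filters, normalizations, array weights, variance models and leaving out arrays or mice.

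The members, lists and motifs were chosen with earlier results of these data known. All 9 genes are named, with up to 4 genes of a list, among those with the smallest adjusted p in a contrast (others, label checks included, were chosen after their values were seen), and the 3 genes nearest to each brighter member. Genes of the lists without a probe set of their own were not analysed here.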

Additional observations from a re-analysis of the deposited data

Results flagged for a closer look

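Lcn2 had 1 array far from the others of its group: at 450 mOsm without LPS mouse 4 stood at 7.34, while the other 3 mice lay between 8.09 and 8.22. The gap was 0.848 of the group's range, above Dixon's critical value at the 95% level for 4 values. It was the single such case among the 36 sets of 4 arrays examined (9 genes in 4 groups), where chance gives about 1 in 20. Without this array the salt change of Lcn2 without LPS was -4.11 and its interaction 3.95.

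The salt change differed between cells with LPS and cells without it for 3 genes by the interaction test. The difference was 4.16 for Lcn2, 2.09 for Retnlg and -1.06 for Camp. Of these 3, Lcn2 and Retnlg had a smaller salt change with LPS than without it, and Camp had a larger one.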

How the results depend on the processing

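All 552 salt changes of the 9 genes, over 31 alternative settings, kept their direction and their side of the threshold where they were tested. Part of the agreement in direction was fixed in advance. Settings that changed only the filter, the variance model or the mouse block left the estimate as it was. So did leaving out an array of a group outside the comparison. The number of primary granule genes called was 0 under the stricter filter (above 7.81, the 65th percentile) for salt without LPS, salt with LPS and LPS at 450 mOsm, since none of them was then tested, and 0 under cyclic loess and median centring for LPS at 450 mOsm. It ranged from 0 to 2 for LPS at 290 mOsm and from 0 to 1 for LPS at 450 mOsm when arrays or mice were left out. The difference of secondary minus primary medians for salt with LPS, -2.80, was -2.64 with quantile normalization, -2.73 with cyclic loess, and -2.88 to -2.74 with arrays or mice left out. For LPS at 290 mOsm it was 0.45, and 0.37 with quantile normalization and 0.60 with cyclic loess. Genes called for the interaction numbered 2161, and 1383 to 2266 with arrays or mice left out.

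With the mouse as a replicate block, Ngp was called higher for LPS at 290 mOsm (limma adjusted p = 0.0197), and the pairing changed no other call among the 9 genes. Ngp passed the threshold in 11 of 31 alternatives, with limma adjusted p from 0.00301 to 0.168. Ltf was called for the interaction with quantile normalization (0.55, limma adjusted p = 0.0428).

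Changes near 0 that were not called turned sign: Ltf for LPS at 290 mOsm (0.12 with cyclic loess, -0.14 to 0.072 with arrays or mice left out), Prtn3 for LPS at 290 mOsm (-0.078 to 0.18) and at 450 mOsm (-0.14 to 0.22), Retnlg for LPS at 450 mOsm (-0.067 with array weights, -0.21 to 0.19), and the interactions of Mpo (-0.069 with quantile normalization, -0.084 to 0.19), Prtn3 (-0.096 with quantile normalization, -0.21 to 0.17) and Elane (-0.11 to 0.016). The cause was not tested. Low signal limits Ctsg, below the filter level on every array, and the 450 mOsm values of Retnlg and most other members.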

Other observations

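The genes whose pattern over the 16 arrays lay nearest were found for each granule gene whose mean exceeded the filter level. The measure was the root mean square difference (log2) after each gene was set relative to its own mean. Only genes passing the filter were searched, and the granule genes described here were left out, so their distances to each other are not given. Nearest to Ngp were S100a9 (0.52) and S100a8 (0.87), which encode the subunits of calprotectin, and Ly6a2 (1.16). The same calprotectin genes were nearest to Ltf (0.43 for S100a9 and 0.56 for S100a8), followed by Ly6g (0.94). Camp lay nearest to Pglyrp1 (0.39), Olfm4 (0.42) and Chil1 (0.43). Neither Lcn2 nor Retnlg had a neighbour as close as the first of Ngp, Ltf and Camp. For Lcn2, Zfp558 stood at 0.91, Ccl2, a monocyte chemokine gene, at 1.01 and Edn1, the endothelin 1 gene, at 1.13. Retnlg lay nearest to Plau (0.84), the urokinase gene, Ly6g (0.88) and Cxcl14 (0.98). The nearest genes to Prtn3 were Fcnb (0.20), Lbp (0.23) and Itgb3 (0.23). The distances are not scaled by how much a gene varies, and the SD over the 16 arrays was 2.36 for Lcn2 and 0.51 for Prtn3. These distances are descriptions over arrays that share groups and mice.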
